A study of Homo sapiens with 6 samples.

Results

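Focal adhesions are the sites where integrin receptors are tied, on the inner side of the membrane, to bundles of actin and myosin called stress fibres. Talin and kindlin bind and activate the integrin tails, vinculin strengthens the link between talin and actin, and alpha-actinin, filamin, calponin and LIM-domain proteins crosslink and tune the fibres. Many of the genes for these proteins are targets of serum response factor (SRF), a transcription factor that binds a short promoter element called the CArG box and is switched on by its cofactor MRTF when free actin monomer falls. The 45 genes described here are the rows of the deposited count table whose gene name is on a fixed list of such proteins, out of 58735 rows in all. All 45 were found, each in 1 row.

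The RNA came from 786-O, a widely used human line derived from a clear cell renal carcinoma. By the sample labels, the cells of 3 libraries carried a control hairpin (sh-Control). Those of 3 others carried a hairpin that targets CBX7 (sh-CBX7), the gene of a chromobox subunit of Polycomb complexes. The count columns say siCBX7 instead, so the kind of knockdown rests on the labels. No other treatment is named for either group. Separate cultures, clones or a number of hairpins are not named either, so each p-value below reflects the spread among these 6 libraries alone, which may be technical. The question of the comparison is how lowering CBX7 RNA went along with the level of adhesion genes.

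Libraries held 16384151 to 18868874 counts. The targeted gene had 203, 240 and 183 counts under sh-Control against 143, 111 and 142 under sh-CBX7, which is 1.64-fold lower and still detected. Its log2 fold change, given below as log2 change and always as sh-CBX7 over sh-Control, was -0.71 (SE 0.13, edgeR adjusted p = 5.41e-05). All 12 markers of kidney tubule and clear cell carcinoma were detected, with a sum of 3629 to 3789 CPM (counts scaled to the normalised library total) in sh-Control and 3746 to 3994 CPM in sh-CBX7, and 2 of them rose and 5 fell. PAX8 stood at a mean of 282 CPM in sh-Control, whereas CA9, a marker of clear cell carcinoma, was low at 1.14 CPM. Of the markers of other cell types, MYOCD, CDH5, PTPRC, CD3E and MS4A1 had 0 counts in each library. Others on the same lists were detected, and no fibroblast marker was among those with 0 counts throughout. The 7 smooth muscle and pericyte markers summed to between 89.6 and 98.3 CPM in sh-Control and between 89.8 and 94.4 CPM in sh-CBX7, nearly all of it SMTN. Of the 4 that were tested SYNPO2 rose and LMOD1 fell. RGS5, also on this list, had no unique row under its name and is not in the sum. The 5 endothelial markers summed to 2.47 to 3.19 CPM in sh-Control and 3.86 to 5.04 CPM in sh-CBX7, and of 2 tested PECAM1 rose. The 7 fibroblast markers summed to 12.2 to 13.6 CPM in sh-Control and 11.6 to 14.0 CPM in sh-CBX7, and of 5 tested LUM rose while COL1A1 and PDGFRA fell. The 6 immune markers summed to 1.65 to 2.95 CPM in sh-Control and 1.54 to 3.05 CPM in sh-CBX7, and neither of the 2 tested was called. The part of such cells in the results was not tested.

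The promoters of the set are shown first because SRF is a member and its binding element can be read from sequence. A RefSeq promoter (GRCh38.p14, 250 bases before to 50 after a transcript start) was at hand for 40 of the 45 genes, with no entry for TAGLN, PDLIM2, FERMT1, PARVA and PTK2. The CArG box was searched as 10 bases, on both strands at once because the pattern is its own reverse complement. At least 1 box was found for 9 of the 40 genes (22.5%), against 438 of 27305 genes (1.6%) in the whole RefSeq table. These genes have more annotated starts than most, so the share was also taken per window: 11 of 96 windows of the set (11.5%) against 1.29% of all 35116 windows. For FHL2, 2 of the windows overlap and hold the same box, and a match is a description of the letters, not a bound site. The motif GGAATG (or CATTCC on the other strand), which TEAD factors bind, was found for 12 of the 40 genes (30.0%) against 16.7% of all genes, but per window the shares were 15.6% and 14.0%. In TES it overlaps the box.

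The stretches below lie upstream of the annotated start and are shown because their genes span the responses seen, from the largest rise among the genes with a box to a fall. Each is written 5′ to 3′ on the strand of the gene, and capitals mark the CArG box.
SRF, chr6:43171199-43171268, plus strand: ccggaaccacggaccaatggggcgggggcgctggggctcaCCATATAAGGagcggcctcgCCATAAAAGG
CNN2, chr19:1026479-1026568, plus strand: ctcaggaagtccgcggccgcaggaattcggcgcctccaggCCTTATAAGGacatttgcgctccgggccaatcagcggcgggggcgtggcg
ACTN1, chr14:68977688-68977777, minus strand: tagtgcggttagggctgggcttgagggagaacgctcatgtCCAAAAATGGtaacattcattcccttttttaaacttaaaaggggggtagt
FLNA, chrX:154374679-154374768, minus strand: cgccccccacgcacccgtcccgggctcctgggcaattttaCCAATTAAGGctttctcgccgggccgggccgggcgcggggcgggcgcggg
LPP, chr3:188212489-188212578, plus strand: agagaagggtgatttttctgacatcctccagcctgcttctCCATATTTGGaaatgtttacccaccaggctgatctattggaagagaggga
FHL2, chr2:105438565-105438654, minus strand: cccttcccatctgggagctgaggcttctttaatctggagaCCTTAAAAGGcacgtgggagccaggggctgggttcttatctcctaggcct
SRF carries 2 boxes, 30 and 10 bases before its start. The other 3 genes with a box were TGFB1I1, FHL1 and TES. In SRF, CNN2 and FLNA the box lies before the outer start of the gene in GENCODE 29, in LPP, ACTN1, TES, FHL1 and TGFB1I1 it lies at an internal start, and FHL2 has boxes at both kinds of start.

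Across the set, 35 of 44 genes passed the edgeR test (79.5%), with 21 rising (47.7%) and 14 falling (31.8%) in sh-CBX7, and CNN1 was too low to test. The background was high: 53.3% of all 14573 tested genes were called, 26.1% as higher and 27.2% as lower. The share of falling genes was thus close to the background over all tested genes, and that of rising genes was above it. The genes of the set were also more abundant than most, with a median of 107.7 CPM against 20.6 CPM over all tested genes. Where the mean level was 20 CPM or more, 66.6% were called, against 27 of 34 genes of the set (79.4%). By direction, 30.1% of all genes at that level were higher and 36.5% lower, against 16 and 11 of the 34. The backgrounds that follow are over all tested genes and were not matched by level. With a log2 fold change of at least 0.5 in size beside the call, 15 genes were higher (34.1%, background 14.5%) and 8 lower (18.2%, background 13.4%). The values of the 3 libraries of a group did not overlap those of the other group for 36 of 44 genes (81.8%), where the background was 59.0%.

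The set as a whole moved little on balance, while its genes moved apart. The median log2 change was 0.17 against -0.01 over all tested genes, and the median size of the change, regardless of sign, was 0.57 against 0.33. Of all counts, the set took 1.12%, 1.11% and 1.11% under sh-Control and 1.25%, 1.23% and 1.27% under sh-CBX7, so that its share was higher in each sh-CBX7 library than in any sh-Control library. FLNA, TAGLN2, ACTN1, ACTN4 and LASP1 together made up 54.0% ± 0.80 of the counts of the set under sh-Control and 56.9% ± 0.55 under sh-CBX7 (SD, n = 3 each). In bulk RNA, fewer cells with a transcript and less of it per cell cannot be told apart.

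**Figure D1:**
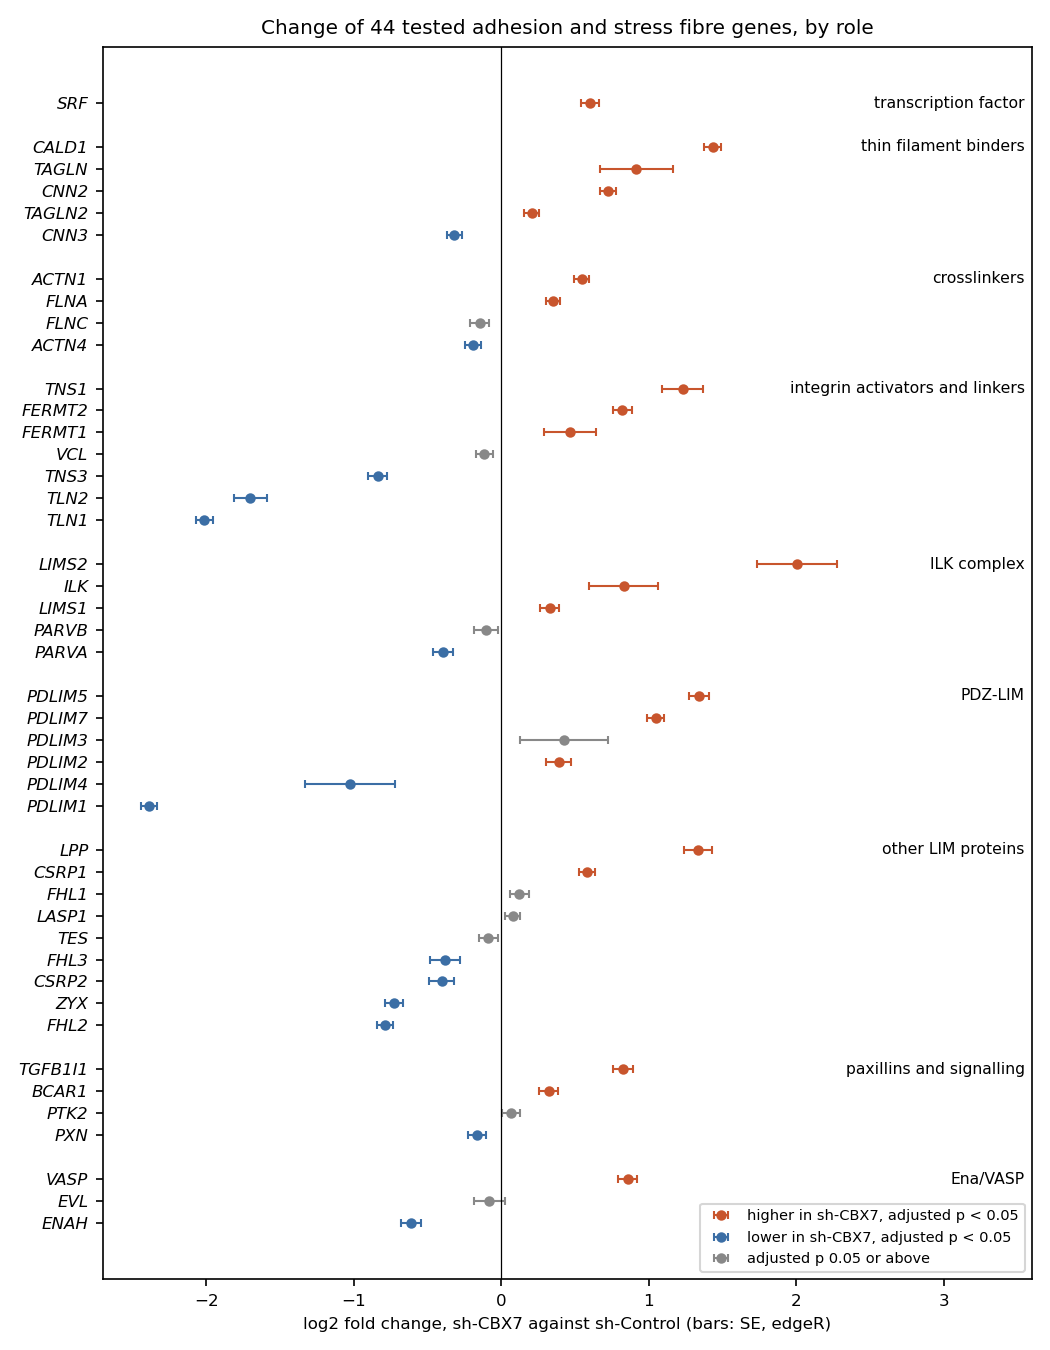
Log2 change (x axis) of each of the 44 tested genes, grouped by role, with bars showing the SE of the edgeR fit; orange marks genes higher in sh-CBX7, blue genes lower and grey genes not called. Each group with more than 1 gene holds both higher and lower calls, and the ends of the range are PDLIM1 at -2.39 and LIMS2 at 2.01.

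SRF, the transcription factor of the set (ENSG00000112658; GRCh38 chromosome 6, 43171299 to 43181507, plus strand), had 97.3, 94.8 and 92.8 CPM in the sh-Control libraries and 138, 139 and 156 CPM in the sh-CBX7 libraries. The sh-Control libraries lay close together and below each sh-CBX7 library. SRF rose by 0.60 on the log2 scale (SE 0.06, edgeR adjusted p = 3.29e-08), a 1.52-fold rise. Of the 9 genes with a CArG box in a promoter window, 6 rose (SRF, CNN2, ACTN1, FLNA, LPP and TGFB1I1), FHL2 fell, and FHL1 and TES were not called, with a median log2 change of 0.55. Of the 30 tested genes with a promoter and no box, 12 rose and 12 fell, with a median of -0.09. Among all 165 tested genes with a box, 36.4% rose and 27.9% fell, with a median of 0.04. The 9 genes were on a list built around SRF, so their direction and the share of boxes are descriptions only.

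Of 6 tested genes for cofactors of SRF and an inhibitor of 1 of them, 2 rose and 2 fell. Over all tested genes 53.3% were called, and 6 genes are too few to set apart from that share. MRTFA, the actin-sensing coactivator, fell from 29.7 ± 2.73 to 21.0 ± 2.21 CPM (SD, n = 3 each; log2 change -0.50, edgeR adjusted p = 0.000242), and its relative MRTFB had a log2 change of -0.23 (adjusted p = 0.142). Of the ternary complex factors, which bind DNA beside SRF and answer to MAP kinases, ELK3 fell by 0.83, ELK4 rose by 0.57 and ELK1 rose by 0.17. MYOCD, the muscle cofactor, had 0 counts, and SCAI, an inhibitor of MRTF, had a log2 change of -0.16 (adjusted p = 0.424).

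Of the 6 genes for proteins that lie along the actin filament, 4 rose, CNN3 fell and CNN1 was not tested. CALD1 encodes caldesmon, which holds back actomyosin and stabilises filaments (ENSG00000122786; chromosome 7, 134744252 to 134970728, plus strand). Its level was 137, 149.7 and 150.2 CPM in the sh-Control libraries and 383, 401 and 398 CPM in the sh-CBX7 libraries. Every sh-CBX7 library was thus far above every sh-Control library, and the log2 change was 1.43 (SE 0.06, edgeR adjusted p = 2.84e-15), or 2.70-fold.

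Calponins bind actin and restrain its sliding over myosin. CNN2 had 335, 304 and 309.8 CPM in sh-Control and 525, 515 and 531 CPM in sh-CBX7 (log2 change 0.73, SE 0.05, edgeR adjusted p = 1.31e-10). CNN3 went the other way, from 517, 538 and 515 CPM to 433, 415 and 413 CPM (log2 change -0.32, SE 0.05, edgeR adjusted p = 1.84e-05). Neither gene's groups overlapped. On the scale of level per length (RPKM, the CPM divided by the deposited gene length in kilobases), CNN3 made up 68.0% ± 1.49 of the summed level of the 3 calponins in sh-Control and 50.7% ± 0.73 in sh-CBX7, and CNN2 went from 32.0% ± 1.505 to 49.2% ± 0.76 (SD, n = 3 each). CNN1, the smooth muscle calponin, had 3, 8 and 3 counts in sh-Control and 16, 2 and 4 in sh-CBX7, too few to compare.

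Transgelins are small calponin relatives. TAGLN2, the form of non-muscle cells, was the most abundant gene of the set per length in both groups, at 674 ± 41.9 RPKM under sh-Control and 779 ± 11.3 RPKM under sh-CBX7 (SD, n = 3 each). It rose by 0.21 on the log2 scale (SE 0.05, edgeR adjusted p = 0.00166). TAGLN, the smooth muscle form and a classic SRF target, stayed at the other end of the range, with 1.92, 1.59 and 1.72 CPM in sh-Control and 3.66, 2.42 and 3.78 CPM in sh-CBX7 (log2 change 0.92, SE 0.25, edgeR adjusted p = 0.00335). Of its exon bases, 11.4% are shared with other genes, mainly PCSK7 on the opposite strand, which had more counts than TAGLN (369 against 44.2 per library on average); the part of PCSK7 reads in its counts was not tested.

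Of the 4 crosslinker genes, 2 rose and 1 fell. ACTN1, alpha-actinin 1, which bundles stress fibres, had 815, 773 and 798 CPM in sh-Control and 1189.5, 1123 and 1175 CPM in sh-CBX7 (log2 change 0.55, SE 0.05, edgeR adjusted p = 4.08e-09). ACTN4, its close relative, had 950.0, 874 and 905 CPM under sh-Control and 800.1, 771 and 822 CPM under sh-CBX7, and fell by 0.19 (edgeR adjusted p = 0.0035). Neither gene's groups overlapped. The balance between them therefore moved: ACTN1 held 33.4% ± 0.37 of their summed RPKM under sh-Control and 45.6% ± 0.48 under sh-CBX7 (SD, n = 3 each), with no overlap between groups.

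FLNA, the filamin that links actin networks to integrins (chromosome X, 154348524 to 154374638, minus strand), had 1932, 1900.1 and 1898 CPM in sh-Control and 2406, 2359.9 and 2541 CPM in sh-CBX7. It rose by 0.35 (SE 0.05, edgeR adjusted p = 1.91e-06), and its rank by RPKM within the set went from 4 to 2. FLNC, the muscle filamin, had a log2 change of -0.14 with overlapping groups (edgeR adjusted p = 0.0682). It passed the test without sh-Control replicate 1 (log2 change -0.19, adjusted p = 0.00865) and under a replicate block (adjusted p = 0.0439).

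The 2 talins fell furthest among the proteins that bind integrins. TLN1 encodes talin-1, the main activator of integrins (ENSG00000137076; chromosome 9, 35696948 to 35732395, minus strand). It had 362, 355 and 358 CPM in the sh-Control libraries and 86.8, 88.3 and 91.1 CPM in the sh-CBX7 libraries. The SD was 3.72 CPM within sh-Control and 2.22 CPM within sh-CBX7 while the groups stood far apart. The log2 change was -2.01 (SE 0.06, edgeR adjusted p = 5.45e-18), a 4.04-fold fall. TLN2, the second talin, had 26.1, 32.7 and 30.1 CPM in sh-Control and 9.76, 9.06 and 8.52 CPM in sh-CBX7 (log2 change -1.70, SE 0.11, edgeR adjusted p = 1.87e-11). Per length, TLN1 held 95.1% of the summed level of both talins in sh-Control and 94.0% in sh-CBX7, and the sum went from 37.4 ± 0.17 to 9.37 ± 0.18 RPKM (SD, n = 3 each). TLN1 went from rank 14 to rank 26 of 45 by RPKM.

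Vinculin and the kindlins, which act beside talin, were not called lower in the reported fit. VCL, vinculin, which binds stretched talin, had 458, 527 and 499.6 CPM in sh-Control and 455, 447 and 470.1 CPM in sh-CBX7, with overlapping groups and a log2 change of -0.11 (edgeR adjusted p = 0.096; 0.00254 without sh-Control replicate 1). FERMT2, kindlin-2, which activates integrins beside talin, rose from 92.2, 104.0 and 99.5 CPM to 172, 182 and 169 CPM (log2 change 0.82, SE 0.06, edgeR adjusted p = 1.65e-10). The sh-CBX7 libraries were all above the sh-Control libraries. FERMT1, kindlin-1, the epithelial form, was low, with overlapping groups at 6.49, 4.29 and 3.93 CPM in sh-Control and 7.005, 6.94 and 6.38 CPM in sh-CBX7. Its call (log2 change 0.47, edgeR adjusted p = 0.0282) was lost without sh-Control replicate 2 (adjusted p = 0.101) or 3 (0.148), without sh-CBX7 replicate 1 (0.0807) or 2 (0.0752), and in DESeq2 (0.102).

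Tensins carry adhesions inward along the fibres, and the 2 in the set went in opposite directions. TNS3 had 107, 108 and 102 CPM in sh-Control and 57.3, 57.3 and 62.6 CPM in sh-CBX7 (log2 change -0.84, SE 0.06, edgeR adjusted p = 2.30e-10). TNS1 had 6.73, 9.02 and 6.81 CPM in sh-Control and 17.7, 15.0 and 20.5 CPM in sh-CBX7 (log2 change 1.23, SE 0.14, edgeR adjusted p = 1.15e-07). TNS3 stayed the more abundant of the pair per length, but TNS1 went from 4.90% ± 0.71 to 17.8% ± 1.68 of their summed RPKM (SD, n = 3 each).

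The complex of ILK, a pseudokinase, with PINCH (LIMS1, LIMS2) and parvin (PARVA, PARVB) joins integrin tails to actin. LIMS1, the main PINCH gene at 12.3 RPKM in sh-Control, rose by 0.33 (SE 0.06, edgeR adjusted p = 0.000153). Its near copies LIMS3 and LIMS4 had at most 5 counts in a library. LIMS2 had the largest rise of the set, from 1.26, 0.715 and 0.920 CPM to 4.46, 3.32 and 3.84 CPM, a log2 change of 2.01 (SE 0.27, edgeR adjusted p = 1.43e-06) at a low level: it reached 2.87% of the PINCH sum in sh-CBX7. PARVA fell by 0.39 (SE 0.07, edgeR adjusted p = 2.87e-05), and PARVB had a log2 change of -0.10 (adjusted p = 0.318) with overlapping groups.

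ILK itself was counted at only 2.33 to 6.04 CPM over the 6 libraries. Of its exon bases, 78.5% are also exon bases of other genes, mainly TAF10 on the opposite strand, which had 878.5 counts per library on average against 66.0 for ILK. Per length, ILK stood at 0.779 RPKM in sh-Control, below its partners LIMS1 (12.3), PARVB (6.66) and PARVA (5.39). The ILK log2 change of 0.83 (edgeR adjusted p = 0.00447) rests on groups that overlap, at 3.07, 2.75 and 2.33 CPM against 5.52, 6.04 and 2.99 CPM, and how many ILK reads were assigned elsewhere or not counted was not tested.

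**Figure D2:**
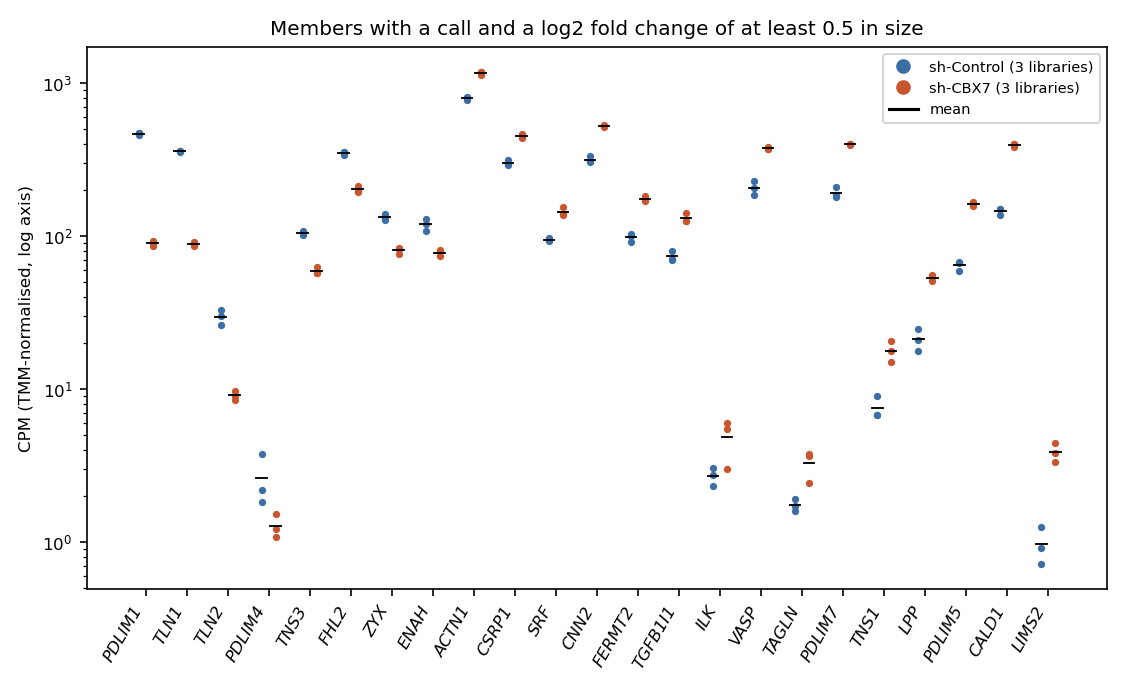
Normalised level (y axis, CPM on a log scale) of the 23 genes with a call and a log2 fold change of at least 0.5 in size, ordered by fold change, with 1 point per library (blue sh-Control, orange sh-CBX7) and a black line at the mean of 3. The groups separate for each gene shown except ILK, where the third sh-CBX7 library, at 2.99 CPM, lies below the highest sh-Control library, at 3.07 CPM.

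PDLIM proteins bind alpha-actinin through a PDZ domain and carry LIM domains along stress fibres, and of the 6 genes here 3 rose and 2 fell. PDLIM1 (ENSG00000107438; chromosome 10, 95237572 to 95291024, minus strand) had 472, 474 and 459 CPM in the sh-Control libraries and 89.5, 92.5 and 86.8 CPM in the sh-CBX7 libraries. It was the largest fall of the set, 5.23-fold, with a log2 change of -2.39 (SE 0.06, edgeR adjusted p = 4.53e-19) and no overlap. Its rank by RPKM within the set went from 2 to 13.

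PDLIM7, also called Enigma, moved the other way, from 210.1, 186 and 181 CPM to 401, 394 and 398 CPM (log2 change 1.05, SE 0.06, edgeR adjusted p = 1.45e-12). PDLIM5, or ENH, of the same subfamily, rose from 58.8, 67.8 and 66.6 CPM to 158, 167 and 165 CPM (log2 change 1.34, SE 0.07, edgeR adjusted p = 1.02e-13). Every sh-CBX7 library was above every sh-Control library for both genes. PDLIM2 had 30.0, 24.9 and 29.5 CPM against 36.7, 35.8 and 38.0 CPM and rose by 0.39 (SE 0.09, edgeR adjusted p = 0.000581).

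PDLIM4 and PDLIM3 were close to the limit of detection. PDLIM4 had 3.79, 2.20 and 1.84 CPM in sh-Control and 1.22, 1.09 and 1.52 CPM in sh-CBX7 (log2 change -1.02, SE 0.30, edgeR adjusted p = 0.0071), and without sh-Control replicate 1, the highest library, it had -0.66 and an adjusted p = 0.101. PDLIM3 had a log2 change of 0.43 (SE 0.30, adjusted p = 0.238).

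Put on the scale of level per length, the PDLIM genes changed places. PDLIM1 made up 79.9% ± 0.95 of the summed RPKM of the 6 genes under sh-Control and 26.9% ± 0.71 under sh-CBX7 (SD, n = 3 each). PDLIM7 went from 16.6% ± 1.00 to 60.7% ± 0.70 and PDLIM5 from 2.22% ± 0.21 to 9.92% ± 0.28. On this scale the gains did not make up for the loss: the sum of the 6 genes went from 262 ± 6.25 to 149 ± 0.82 RPKM. That sum leans on the deposited lengths, at 2239 bases for PDLIM1, 4407 for PDLIM7 and 11090 for PDLIM5. Without division by length, mean PDLIM1 went from 468 to 89.6 CPM, PDLIM7 from 192 to 398 and PDLIM5 from 64.4 to 163. Shares within a library do not depend on the library scaling, and for these 3 genes no library of one group reached the range of the other.

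**Figure D3:**
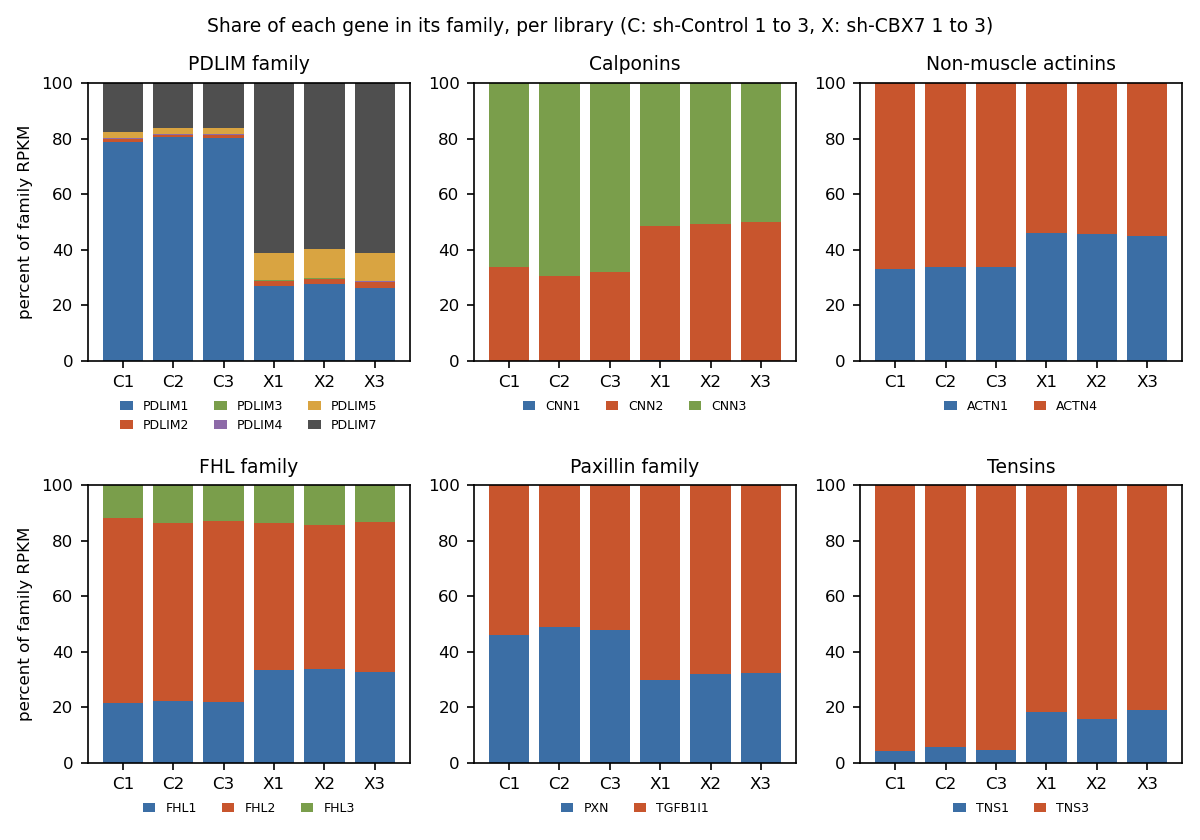
Percent of the summed RPKM of a family (y axis) taken by each of its genes in each library (x axis, C1 to C3 sh-Control and X1 to X3 sh-CBX7), for 6 families. PDLIM1 is about 79.9% of the PDLIM bar in sh-Control and 26.9% in sh-CBX7, and the shares of CNN2, ACTN1, FHL1, TGFB1I1 and TNS1 are larger in every sh-CBX7 library than in any sh-Control library.

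The other LIM proteins of the set also split. ZYX, zyxin, which moves to strained fibres and recruits VASP, had 141, 128 and 134 CPM in sh-Control and 82.8, 76.9 and 83.1 CPM in sh-CBX7 (log2 change -0.73, SE 0.06, edgeR adjusted p = 1.55e-09). LPP, a zyxin relative, had 17.9, 21.0 and 24.8 CPM in sh-Control and 54.0, 55.6 and 50.7 CPM in sh-CBX7 (log2 change 1.33, SE 0.09, edgeR adjusted p = 6.50e-11). Neither gene's groups overlapped. Zyxin remained the higher of the pair per length, at 23.3 RPKM in sh-CBX7 against 2.09 for LPP. The deposited lengths behind these values differ widely, at 3482 bases for ZYX and 25535 for LPP.

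FHL2, a coregulator of SRF and other factors made of LIM domains only, had 353, 337 and 356 CPM in sh-Control and 213, 198 and 195 CPM in sh-CBX7 (log2 change -0.79, SE 0.06, edgeR adjusted p = 5.94e-11). It is the gene with a CArG box that fell. FHL3 went from 19.2, 21.7 and 21.0 CPM to 16.5, 16.4 and 14.6 CPM and fell by 0.38 (SE 0.10, edgeR adjusted p = 0.0034). FHL1 had 103, 105 and 107 CPM against 120.5, 116 and 108 CPM, a log2 change of 0.12 (adjusted p = 0.0927; 0.0202 with upper quartile normalization). The FHL1 groups nevertheless did not overlap. Of the summed RPKM of the 3 genes, FHL1 went from 21.8% ± 0.35 to 33.3% ± 0.40 and FHL2 from 65.4% ± 1.19 to 53.0% ± 0.89 (SD, n = 3 each).

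CSRP1, a LIM protein that binds alpha-actinin and zyxin, had 314, 290.0 and 295 CPM in sh-Control and 466, 441.5 and 441.4 CPM in sh-CBX7 (log2 change 0.59, SE 0.05, edgeR adjusted p = 4.99e-09). CSRP2 went from 41.0, 36.2 and 37.9 CPM to 27.1, 31.2 and 28.9 CPM, again without overlap, and fell by 0.40 (SE 0.08, edgeR adjusted p = 0.000313). LASP1, at 104 RPKM in sh-Control, had a log2 change of 0.08 (adjusted p = 0.189), and TES, testin, had -0.09 (adjusted p = 0.286). LASP1 passed the test with upper quartile normalization (adjusted p = 0.0302) and TES without sh-Control replicate 1 (adjusted p = 0.0245).

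Among the paxillins and their signalling partners, TGFB1I1 moved most. It encodes HIC-5, a paxillin relative found in contractile and mesenchymal cells, and had 79.8, 70.2 and 70.9 CPM in sh-Control and 142, 125 and 125 CPM in sh-CBX7 (log2 change 0.83, SE 0.07, edgeR adjusted p = 8.96e-10). PXN, paxillin, had 94.4, 93.5 and 89.5 CPM in sh-Control and 83.3, 81.2 and 82.8 CPM in sh-CBX7, without overlap, but its small log2 change of -0.17 (edgeR adjusted p = 0.025) lost the call without sh-Control replicate 2 (adjusted p = 0.0506), without sh-CBX7 replicates 1, 2 or 3 (0.0544, 0.0852 and 0.0609) and with upper quartile normalization (0.111). HIC-5 took 52.3% ± 1.48 of their summed RPKM under sh-Control and 68.6% ± 1.33 under sh-CBX7 (SD, n = 3 each). BCAR1, the scaffold p130Cas, rose by 0.32 (SE 0.06, edgeR adjusted p = 0.000179). PTK2, focal adhesion kinase, had 161, 183 and 170.3 CPM against 171, 189.7 and 178 CPM, with overlapping groups and a log2 change of 0.07 (adjusted p = 0.382).

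Ena/VASP proteins drive filament growth at adhesions and leading edges. VASP had 229, 187 and 205 CPM in sh-Control and 374, 370.4 and 380.5 CPM in sh-CBX7 (log2 change 0.86, SE 0.06, edgeR adjusted p = 1.27e-10). ENAH, or Mena, had 109, 129 and 119.8 CPM in sh-Control and 73.6, 80.2 and 80.6 CPM in sh-CBX7 (log2 change -0.61, SE 0.07, edgeR adjusted p = 1.18e-07). Groups did not overlap for either gene. EVL had a log2 change of -0.08 (adjusted p = 0.539). VASP was the main member of the family per length in both groups, at 85.4% ± 2.24 of their summed RPKM under sh-Control and 93.8% ± 0.31 under sh-CBX7 (SD, n = 3 each).

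**Figure D4:**
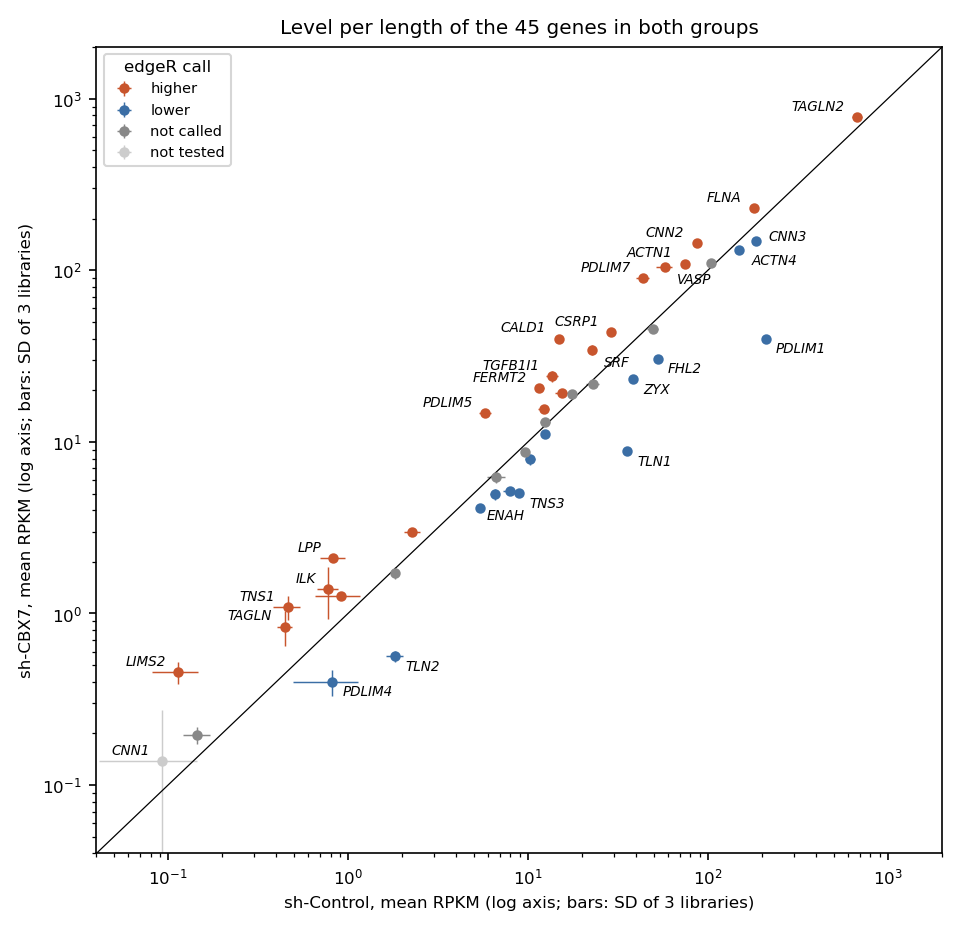
Mean level per length (RPKM, log axes) of all 45 genes in sh-Control (x axis) and sh-CBX7 (y axis), with bars showing the SD of 3 libraries and a line of equal level; genes with a large change or a high level are named. TAGLN2 is highest in both groups, at 674 and 779 RPKM, and PDLIM1, TLN1 and TLN2 lie farthest below the line among genes above 1 RPKM in sh-Control.

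In the order of level per length, the top of the set changed little apart from PDLIM1. TAGLN2 led in both groups. In sh-Control it was followed by PDLIM1 (209 ± 3.58 RPKM), CNN3 (184 ± 4.53) and FLNA (180.4 ± 1.79), of which CNN3 and FLNA lay within 1 SD of each other. In sh-CBX7 the order was TAGLN2, FLNA (230.1 ± 8.90), CNN3 (148 ± 3.87) and CNN2 (144 ± 2.21; SD, n = 3 each), and the libraries of CNN3 and CNN2 overlapped. CNN1, LIMS2 and PDLIM3 were the lowest in sh-Control, at 0.0929, 0.114 and 0.146 RPKM.

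Other adhesion genes, taken from a list that does not share members with the set, changed in both directions as well. Of 35 tested plaque and adaptor genes, 17 rose and 8 fell, with a median log2 change of 0.14. Over all tested genes, 26.1% were called higher and 27.2% lower, so calls in both directions are not particular to this list. RSU1 rose from 94.0 ± 3.04 to 193 ± 8.66 CPM (SD, n = 3 each; log2 change 1.04, edgeR adjusted p = 1.86e-12). CTTN, cortactin, which stabilises branched actin, rose by 0.88, the Rap1 activator RAPGEF1 by 0.99 and the paxillin relative LPXN by 0.75. SVIL, supervillin, which ties myosin II to the membrane, fell from 71.5 ± 5.49 to 22.1 ± 1.55 CPM (log2 change -1.69, edgeR adjusted p = 6.64e-14). The tensin TNS2 fell by 0.84 and the adaptor CRKL by 0.49.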

How the data were processed

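The authors' deposited table holds read counts per gene as whole numbers without normalization, for 58735 genes and 6 libraries. The tools named in the submitters' processing notes are HISAT2 2.0.5, featureCounts 1.5.0-p3, Trimmomatic and FastQC; their order and strand setting are not given in the sources used here, so reads of overlapping genes on opposite strands could not be told apart. The notes name hg19, but the start and end of all 45 genes equal those of GENCODE 29 on GRCh38. Columns named siCBX7 and control were matched to the sh-CBX7 and sh-Control labels by target and replicate number. Gene length (another column of the deposited table) gave RPKM. For the genes of the set it equals all annotated exon bases of a gene together, not the length of the transcripts in use. RPKM ranks and family shares between genes depend on that length, while the change of a gene between groups does not.

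Genes passing filterByExpr (14573) were normalised with TMM and compared with edgeR 4.0.16 (R 4.3.3; glmQLFit, glmQLFTest, unpaired), with Benjamini-Hochberg adjustment over all tested genes and calls below 0.05. SE is the log2 fold change divided by the square root of F. CPM and RPKM use TMM-scaled library sizes. The test was first tested on simulated counts. Libraries of a group differed by more than sampling noise (chi-square per gene 2.85 to 9.23), so none was treated as a duplicate deposit; this does not show that they came from separate cultures. The alternatives were DESeq2 1.42.0 and its size factors, upper quartile normalization, library size alone, other count filters, limma 3.58.1 voom, a minimum fold change, a replicate block and leaving out libraries. Every one of the 45 genes could be named; genes with a call and a log2 fold change of at least 0.5 in size, and families whose genes moved apart, are given by library. From the other adhesion genes, up to 4 per direction by smallest p are named. Some genes of these lists are not reported here. The members and lists were chosen with earlier results of these data known. Near copies named as pseudogenes of a member had at most 0.0631% of its counts.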

Additional observations from a re-analysis of the deposited data

How the results depend on the processing

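Of the 35 called genes, 32 kept their direction and call under all 14 alternative fits; PDLIM4, PXN and FERMT1 lost the call under at least 1, and FHL1, VCL, FLNC, TES and LASP1, not called in the reported fit, passed under at least 1. No called gene reversed. Across the fits, 20 to 23 genes of the set were higher and 13 to 16 lower, with 23 higher and 13 lower under upper quartile normalization, which moved the median log2 fold change of all genes by 0.05 and that of the set from 0.17 to 0.22. With a minimum log2 fold change of 0.5, 8 in place of 14 were lower, by construction of the limit. Leaving out 1 library at a time gave 20 to 21 higher and 13 to 16 lower, a median of the set from 0.14 to 0.18, a difference in the share of counts from 0.131 to 0.150 percentage points, 14 to 16 higher and 6 to 9 lower other adhesion genes, and a CBX7 log2 fold change from -0.77 to -0.65. A replicate block on the library numbers gave 21 higher and 15 lower genes of the set, FLNC being the added call (adjusted p = 0.0439). Deviations of libraries with the same number correlated at 0.055, 0.061 and 0.035, each library correlating best with its own number, but below the 0.1 taken as pairing, so the numbers were not treated as pairs. Depth limits the low genes: the SE was 0.30 for PDLIM4 and 0.27 for LIMS2, against 0.06 for TLN1.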

Other observations

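A sequence comparison was added because earlier results of these data had drawn attention to a 16-base stretch of CBX7 coding sequence shared with SEC22A; the sequence of the hairpin is not given in the sources used here. In GENCODE 29 transcripts, the stretch of CBX7 (chr22:39134691-39134706, minus strand, exon 5) is set here beside the nearest match of TLN1 (chr9:35698417-35698432, minus strand, exon 55 of 57), of TLN2 (chr15:62835964-62835979, plus strand) and of PDLIM7 (chr5:177489982-177489997, minus strand), all in coding exons on GRCh38. Capitals mark bases that differ from CBX7.
CBX7: aggagaagctctgctt
TLN1: aggagaagctcATctC
TLN2: aggagaagctcATctC
PDLIM7: aggagaagctGCCctt
The talins, which fell by 2.01 and 1.70 on the log2 scale, carry the same 16 bases, and PDLIM7, with as many mismatches (3), rose by 1.05. TNS3 was the fourth gene of the set with 3 mismatches, across an exon junction, and fell by 0.84. PDLIM1, the gene that fell furthest, had 6 mismatches at its nearest. A nearest match of 3 mismatches was found in 595 of 12423 tested genes with transcripts (4.79%). Of these, 37.5% fell and 24.4% rose, with a median log2 fold change of -0.10. Over all 14573 tested genes, 27.2% fell and 26.1% rose, but that base also holds genes outside the 12423. The larger classes below are the like base, though the classes were not matched by transcript length. Over the other classes, both genes with 0 mismatches (CBX7 and SEC22A) fell. They are the targeted gene and the gene through which the stretch was chosen, so this class was known beforehand and adds nothing. Neither of the 2 genes with 1 mismatch was called. Of 62 genes with 2 mismatches, 48.4% fell and 19.4% rose, with a median of -0.25. With 4 mismatches, 1072 of 3424 genes fell and 849 rose. With 5 mismatches, 1829 of 6306 fell and 1747 rose, and with 6 mismatches, 532 of 1972 fell and 571 rose. Of 60 genes with 7 mismatches, 43.3% fell and 15.0% rose. No gene of the set matched with fewer than 3 mismatches. The part of such matches in the results was not tested.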
